A study of Mus musculus with 2 samples.

Results

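The genes described here are those named as orphan G protein-coupled receptors (Gpr and a number) or as adhesion G protein-coupled receptors (Adgr) that had at least 1 count in MC3T3-E1 cells, an osteoblast-like line from mouse calvaria. They were chosen by name and by a total of 1 or more over both libraries, and earlier results of these data were known when that rule was set. The names stand on 104 rows of the count table, 77 Gpr and 27 Adgr. Of these, 62 had a count (45 Gpr and 17 Adgr), out of 23527 rows with a count in all, and 42 were listed at 0 in both libraries. No row had a total of exactly 1, and the lowest totals inside the rule were 2 counts, for Gpr31a and Gpr31b.

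RNA was sequenced from cells left untreated and from cells given 10 nM parathyroid hormone (PTH), with 1 library each and both labelled 1 h. In both arms the cells had been seeded 24 h earlier at 25000 per cm2, the culture medium held 10% fetal bovine serum, and the labels describe no genetic change to the line. The libraries held 66302211 (untreated) and 70036872 (PTH) counts. Each condition had 1 library, so differences carry no replicate error and no test, and each comparison is between these libraries and not between the conditions. Nothing in the labels says how the libraries were batched.

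All 8 osteoblast markers looked up had counts, among them Col1a1, Runx2, Alpl and the PTH receptor gene Pth1r. Bglap (osteocalcin) had the fewest, with 57 counts untreated and 87 with PTH. Sp7 (osterix), a transcription factor of osteoblasts, had 4583 counts untreated and 1974 with PTH, a ratio of 0.418 (0.397 to 0.441, the 95% counting interval). Of 8 leukocyte markers 5 were listed at 0 in both libraries, the defining marker Ptprc (CD45) among them, and the list summed to 5.81 CPM (counts per 1000000 counts of the scaled library) untreated and 7.95 with PTH. Those counts came from Lyz2, with 201 untreated and 338 with PTH, Csf1r, with 122 and 155, and Cd68, with 67 and 57. The ratio of Lyz2 was 1.63 (1.37 to 1.95). Of 5 endothelial markers 3, including Cdh5, were at 0, with sums of 0.134 and 0.188 CPM. Of 5 neuronal markers 2 were at 0, including Rbfox3, and the sums of 35.3 and 42.8 CPM came mostly from the cytoskeletal genes Map2 and Tubb3. The 4 epithelial markers summed to 0.730 and 1.03 CPM with Epcam at 0, but Krt8 had 7 and 50 counts, a ratio of 6.94 (3.13 to 18.1), and Cdh1 42 and 14, a ratio of 0.324 (0.163 to 0.605). The 3 adipocyte markers summed to 0.506 and 0.651 CPM with Adipoq at 0. Their part in the differences given here was not tested.

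G protein-coupled receptors cross the membrane in 7 helices and pass signals from outside the cell to G proteins, some of which raise cyclic AMP and some of which lower it. Orphan receptors are those whose natural ligand is unknown or still debated, although several genes with a Gpr name now have an accepted ligand. Adhesion receptors carry a long extracellular part that binds matrix or neighbouring cells and is usually cut from the helices by the protein itself. PTH acts on osteoblasts through Pth1r, which couples to the G protein that raises cyclic AMP. Not every Gpr name fits the label: Gpr89, Gpr107, Gpr108, Gpr137, Gpr137b, Gpr137c, Gpr155 and Gpr180 encode membrane proteins, several of them of the Golgi or the lysosome, that are not classical G protein-coupled receptors. These 8 were kept and are described apart.

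Each ratio below is PTH over untreated, after edgeR's TMM scaling of the library sizes, with its 95% exact counting interval in brackets. A gene was compared when its counts over both libraries totalled 20 or more, and was past the size rule when the whole interval lay beyond 1.5-fold. Of the 62 genes 41 were compared, and 5 of them were past the rule, 2 with more and 3 with fewer reads in the PTH library. Over all 16408 compared rows 8.93% were past the rule, 5.39% with more and 3.54% with fewer reads. The 12.2% of these genes that were past it stands beside that background, which would give 3.66 of 41. The count is therefore no result about the group, and what follows concerns single genes.

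The gene with the largest ratio was Gpr3, which encodes a receptor that couples to the cyclic AMP-raising G protein and is active without added ligand. Gpr3 had 5 counts untreated and 64 with PTH, and its ratio was 12.4 (5.06 to 39.6). Its level went from 0.0745 to 0.926 CPM. Gpr153, an orphan receptor gene with no accepted ligand, was the other gene with more reads, with 2832 counts untreated and 5017 with PTH, a ratio of 1.72 (1.64 to 1.80). Gpr146, a receptor gene linked to plasma cholesterol, had 98 counts untreated and 46 with PTH and was 2.19-fold lower (1.53 to 3.19). Gpr75, which encodes a receptor proposed to bind the chemokine Ccl5, had 31 and 8 counts and was 3.99-fold lower (1.79 to 10.0). Gpr45, an orphan receptor gene known from brain, had 20 counts untreated and was listed at 0 with PTH, so no fold is given.

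These differences rest on unequal depth. Gpr153 alone was past the rule among the 12 of these genes with 2000 or more counts, where 4.66% of all rows were. The other 4 stood among 17 genes with 20 to under 200 counts, where the share past the rule was 17.2% over all rows and would give 2.93 of 17. With intervals widened by a coefficient of variation of 0.2 per library, assumed for the spread between cultures, 4.52% of all rows and 2 of these 41 genes were past the rule. Gpr3 (4.06 to 31.97) and Gpr45 stayed past it and Gpr153 (0.986 to 3.0), Gpr146 and Gpr75 did not. With a coefficient of 0.1, Gpr75 stayed as well, at a background of 6.61%. A row listed at 0 is less certain than its interval says, as set out with the rarest genes.

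**Figure D1:**
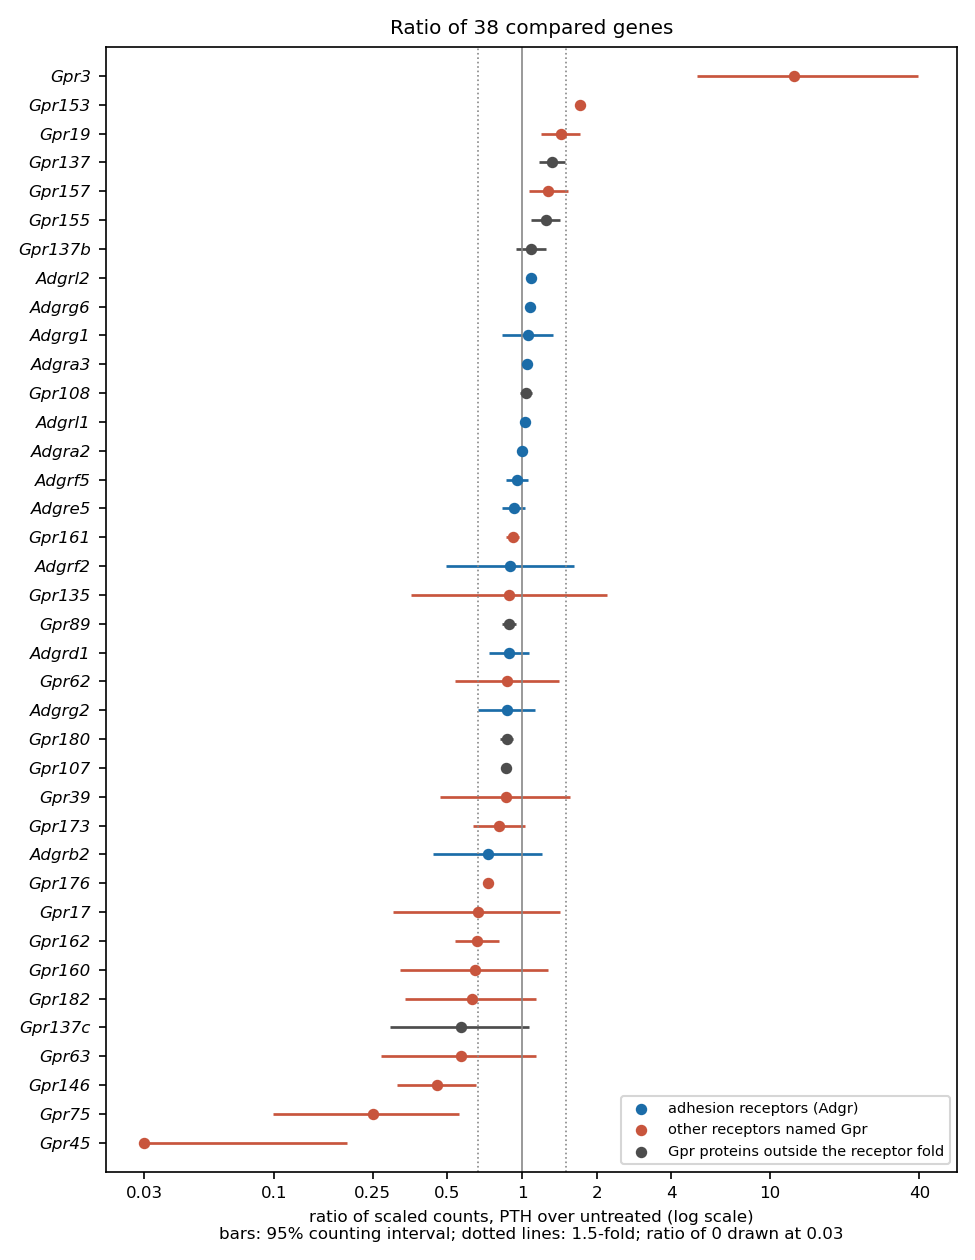
Ratio of scaled counts, PTH over untreated (horizontal axis, log scale), for 38 of the 41 compared genes, with 95% counting intervals as bars and dotted lines at 1.5-fold. Colours give the adhesion receptors, the other Gpr receptors and the Gpr proteins outside the receptor fold. Gpr3 stands apart at 12.4, Gpr153 has a narrow interval at 1.72, and the adhesion receptors lie between 0.728 and 1.09.

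The sequences before the starts of the 4 genes past the rule with counts in both libraries are shown because cyclic AMP acts on transcription largely through CREB, a factor that binds the letters TGACGTCA or the shorter TGACG. Each is the 250 bases before a RefSeq transcript start (GRCm38.p6), written 5′ to 3′ along the gene's own strand. Where RefSeq gives several starts, the one farthest upstream is shown. Capitals mark TGACG on either strand, which reads CGTCA when it lies on the other strand.
Gpr3 promoter, chr4:133212537-133212786, minus strand: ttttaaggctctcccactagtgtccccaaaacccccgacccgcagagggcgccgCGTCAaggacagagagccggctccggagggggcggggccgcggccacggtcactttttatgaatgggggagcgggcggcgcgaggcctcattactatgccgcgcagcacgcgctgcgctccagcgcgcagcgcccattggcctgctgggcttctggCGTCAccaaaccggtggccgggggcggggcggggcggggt
Gpr153 promoter, chr4:152273862-152274111, plus strand: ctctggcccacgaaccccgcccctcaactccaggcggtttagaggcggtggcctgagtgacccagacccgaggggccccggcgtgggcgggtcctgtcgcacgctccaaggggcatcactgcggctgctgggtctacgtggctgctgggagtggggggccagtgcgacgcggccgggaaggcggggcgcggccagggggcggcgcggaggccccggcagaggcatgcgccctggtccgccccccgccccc
Gpr146 promoter, chr5:139377447-139377696, plus strand: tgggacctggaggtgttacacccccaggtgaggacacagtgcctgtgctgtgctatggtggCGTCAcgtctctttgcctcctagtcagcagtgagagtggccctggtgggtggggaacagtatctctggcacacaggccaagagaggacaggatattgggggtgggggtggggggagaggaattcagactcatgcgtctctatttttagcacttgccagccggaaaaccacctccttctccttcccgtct
Gpr75 promoter, chr11:30885108-30885357, plus strand: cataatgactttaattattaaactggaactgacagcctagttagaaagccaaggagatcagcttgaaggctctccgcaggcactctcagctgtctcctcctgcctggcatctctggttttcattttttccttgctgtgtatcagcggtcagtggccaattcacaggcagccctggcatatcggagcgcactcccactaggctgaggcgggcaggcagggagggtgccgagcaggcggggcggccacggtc

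Gpr3 holds 2 matches, beginning 196 and 40 bases before the start, both on the opposite strand. Gpr146, which had fewer reads, holds 1 match in the window shown, beginning 189 bases before the start, and 1 in the second of its 3 windows, beginning 65 bases before. Neither window of Gpr153 holds a match, and nor does the window of Gpr75. The letters were present at Gpr3, with more reads, and at Gpr146, with fewer. Any part they had in these differences was not tested. Of the 62 genes 43 had a RefSeq window, and 16 of the 43 (37.2%) held TGACG on either strand in at least 1 window of 300 bases (250 before the start and 50 after), against 23.0% of all 27025 genes with a window. The 95% exact interval of the 37.2% runs from 23.0 to 53.3%. It treats the genes as independent draws and is no test of the group. The 43 genes had 58 windows and the 27025 genes had 32851, so the number of windows per gene was not equal. Per window, 18 of the 58 (31%) held TGACG, against 20.8% of the 32851. The full TGACGTCA, which contains TGACG, was in 0 of the 43 genes and in 549 of the 27025 (2.03%). A match is a description of the letters and not a binding site.

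Gpr3 (ENSMUSG00000049649) lies on mouse chromosome 4 from 133209340 to 133212536 on the minus strand (GRCm38). Of its exonic length 7.46% overlaps exons of Cd164l2 on the plus strand, a gene that had 8 counts untreated and 7 with PTH. The nearest protein-coding genes that do not overlap it were Wasf2, an actin regulator gene 9584 bases away, at a ratio of 0.916 (0.888 to 0.946), and the kinase gene Map3k6, at 0.754 (0.704 to 0.806). Whether reads from the adjoining genes entered the 64 counts of Gpr3 was not tested. Gpr153 (ENSMUSG00000042804), on chromosome 4 from 152274232 to 152285337, shares no exonic sequence with another gene, and its neighbours Acot7 and Hes3 were at a ratio of 0.924 (0.863 to 0.989) and at 0 in both libraries. Gpr75 (ENSMUSG00000043999, chromosome 11, 30885358 to 30893729) shares 4.34% of its exonic length with Asb3 on the same strand, which was at 0.818 (0.746 to 0.897) with 1014 and 854 counts. Gpr146 (ENSMUSG00000044197, chromosome 5, 139377697 to 139396415) and Gpr45 (ENSMUSG00000041907, chromosome 1, 42952872 to 43035456) share no exonic sequence with another gene. The span of Gpr146 is nevertheless overlapped by 3110082I17Rik on the minus strand, which had 1865 counts untreated and 1790 with PTH. Whether its reads entered the counts of Gpr146 was not tested.

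Genes for receptors known to raise cyclic AMP were listed separately, and the list need not hold every such receptor. Of the 11 listed genes among the names, 5 had counts and 4 were compared, and Gpr3 was the member past the rule. Of all compared rows 8.93% were past it, and 17.2% of those with 20 to under 200 counts, the depth of Gpr3. The count is therefore no result about these genes. Adgrg6 (GPR126), an adhesion receptor that binds type IV collagen and drives myelination by Schwann cells, had 3292 counts untreated and 3662 with PTH, a ratio of 1.08 (1.03 to 1.13). Gpr161, a receptor of the primary cilium that holds hedgehog signalling back, had 2218 and 2099 counts, a ratio of 0.919 (0.865 to 0.976). Adgrd1 (GPR133) had 246 and 225, a ratio of 0.888 (0.738 to 1.07). Gpr6 and Gpr12, the close relatives of Gpr3, were listed at 0 in both libraries, so of this trio Gpr3 alone had counts. Gpr4, a proton-sensing receptor gene, was listed at 0 untreated and had 6 counts with PTH.

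Gpr176 encodes an orphan receptor of the brain's circadian pacemaker that lowers cyclic AMP. It had 5485 counts untreated and 4125 with PTH, a ratio of 0.730 (0.701 to 0.761). This is the lowest ratio among the 12 genes with 2000 or more counts, and it was not past the 1.5-fold rule though it was past the milder of the other fold limits tried.

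Per length of exonic sequence the most abundant gene was Adgra2 (GPR124), a partner of Reck in the reception of Wnt7 ligands. Its level was 28.6 CPM per kilobase in either library, above that of 88.6% of compared protein-coding rows in the untreated library. Gpr176 came next in the untreated library with 20.9 CPM per kilobase and stood at 15.3 with PTH. Adgrl2, a latrophilin (an adhesion receptor that binds teneurins and FLRT proteins), had 18.8 untreated and 20.4 with PTH. Gpr180 had 17.7 and 15.4, and Gpr108 12.9 and 13.3. Gpr153 had 10.8 CPM per kilobase untreated and 18.6 with PTH, which moved it from rank 6 to rank 3 among these genes. The remaining members of the 12 highest were Adgra3, Adgrl1, Gpr89, Gpr161, Gpr107 and Adgrg6, between 9.73 and 4.01 CPM per kilobase untreated. By contrast Gpr3 went from 0.0272 to 0.339 CPM per kilobase, from rank 48 to rank 24 of the 62 genes.

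**Figure D2:**
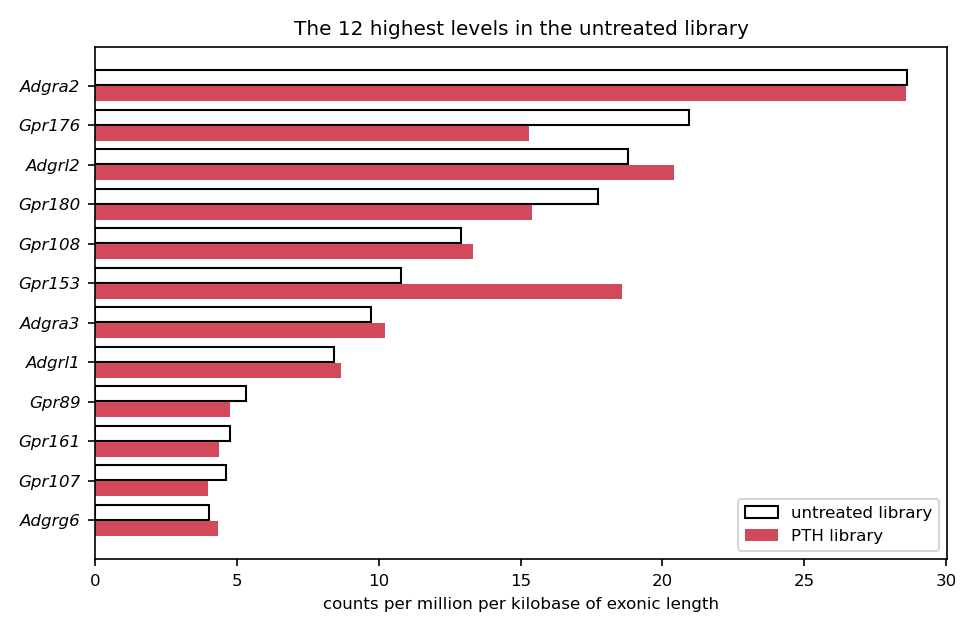
CPM per kilobase of exonic length (horizontal axis) for the 12 genes with the highest level in the untreated library, with 1 open bar for the untreated and 1 filled bar for the PTH library. Adgra2 leads at 28.6 in either library, and Gpr153 goes from 10.8 to 18.6.

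The counts were concentrated in few genes. The 62 genes had 68242 counts untreated and 72067 with PTH, 0.103% of the total in each library. Adgrl2 alone held 27.1% of them, the 4 highest genes 58.1% and the 12 highest 93.2%. Of the 104 names, 39.4% had a total of 20 or more, against 58.1% of the protein-coding rows of the table.

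None of the 12 compared adhesion receptor genes was past the rule, where 8.93% of all compared rows were. With so few genes that count is no result about the family. Their ratios ran from 0.728 to 1.09. The 7 with a total of 1000 or more counts lay between 0.925 and 1.09. Adgrl2 had 17912 counts untreated and 20052 with PTH, a ratio of 1.09 (1.07 to 1.11). Adgra2 had 11097 and 11420, a ratio of 0.999 (0.973 to 1.03). Adgra3 (GPR125) had 5302 and 5735, a ratio of 1.05 (1.01 to 1.09), and Adgrl1, a second latrophilin gene, had 4855 and 5151, a ratio of 1.03 (0.990 to 1.07). For these genes the intervals are narrow, and each leaves out a 1.5-fold difference between these libraries in either direction as far as counting error goes.

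Lower in the same family stood Adgrf5 (GPR116), a regulator of lung surfactant, with 782 and 768 counts, and Adgre5 (CD97), which binds Cd55 and Thy1, with 679 and 647. Adgrg1 (GPR56), a receptor for type III collagen, had 143 and 155 counts, and Adgrg2, known from the epididymis, 124 and 111. Adgrf2 had 26 and 24 counts. Among the 12 compared genes of the family the ratio furthest from 1 was that of Adgrb2, with 40 and 30 counts, at 0.728 (0.438 to 1.20), an interval that holds 1. Of the exonic length of Adgre5 23.8% overlaps opposite-strand exons, mainly of Ddx39, and its counts are uncertain, because the sources do not say if reads were assigned by strand.

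By adhesion subfamily, 6 of 7 Adgrg, 3 of 4 Adgrl, 3 of 5 Adgrf and 2 of 3 Adgra genes had a count. So did 1 of 3 Adgrb, 1 of 3 Adgre and 1 of 1 Adgrd, while the single Adgrv gene had none. Of all 104 names 59.6% had a count, and of the protein-coding rows 66.1%. With so few genes each, these counts are no result about the subfamilies. Some rest on very few reads, and only 3 Adgrg and 2 Adgrl genes reached the limit for comparison. Adgre1, which encodes the macrophage antigen F4/80, was listed at 0 in both libraries, as were Adgrl3, Adgrb1 and Adgrb3, which are known from brain. Adgrl4, an endothelial gene, had 5 counts untreated and 0 with PTH. Neighbours in the genome differed in level. On chromosome 8, Adgrg1 (94974751 to 95014217) lies between Adgrg5 (94923694 to 94943280), with 0 and 4 counts, and Adgrg3 (95017692 to 95045250), with 5 and 2. The compared adhesion genes have long gene models, with a median of 23.5 separate exonic blocks, against 3.5 for the receptors of the rhodopsin-like class and others.

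**Figure D3:**
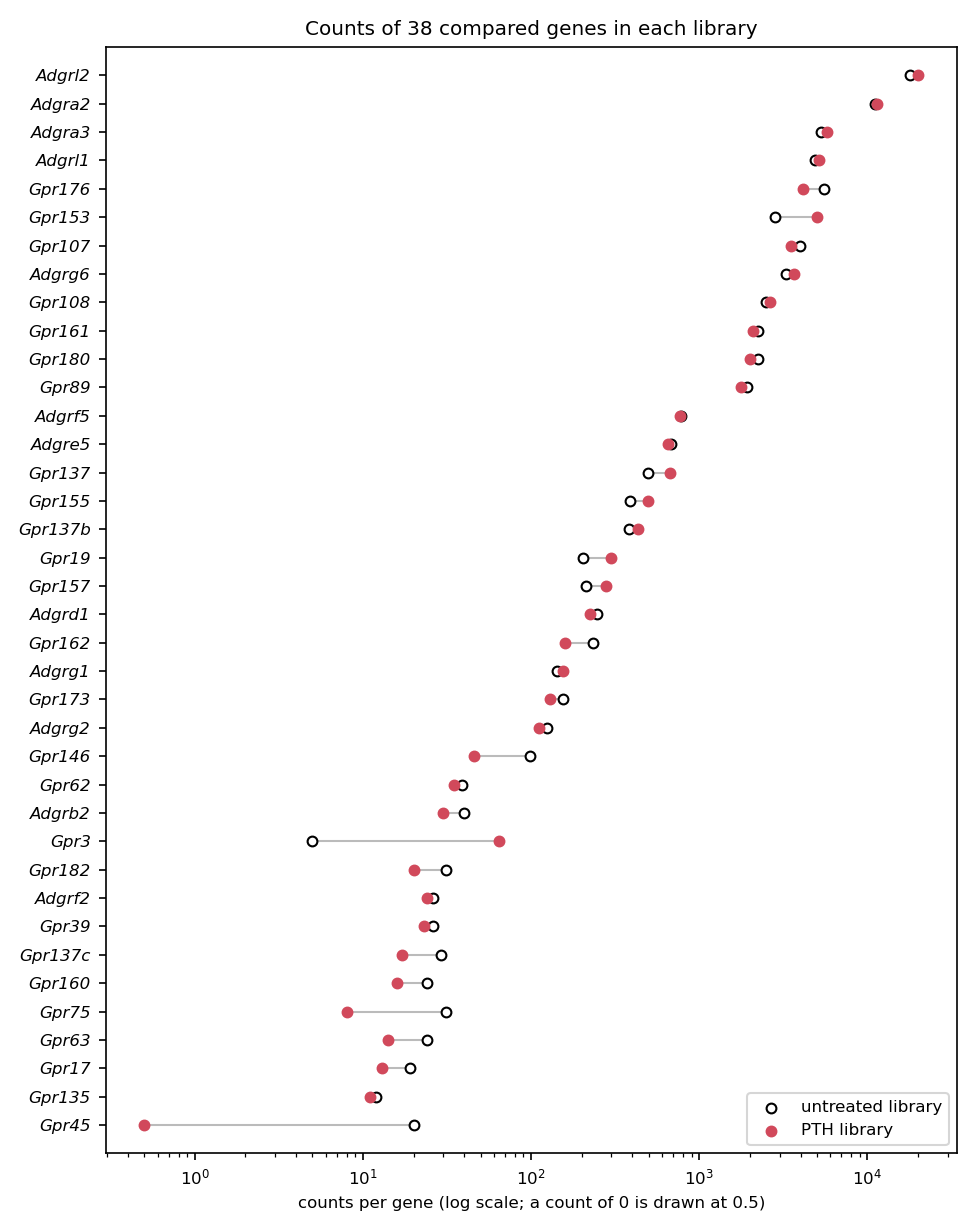
Counts per gene (horizontal axis, log scale) in the untreated library (open circles) and the PTH library (filled circles) for 38 of the 41 compared genes, ordered by total, with a count of 0 drawn at 0.5. The pairs of the adhesion genes nearly coincide, while Gpr3 goes from 5 to 64 and Gpr45 from 20 to 0.

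None of the 8 Gpr proteins outside the receptor fold was past the rule, where 8.93% of all compared rows were. With so few genes that count is no result about them. Gpr107, of the Golgi and endosomes, had 3952 counts untreated and 3512 with PTH, a ratio of 0.863 (0.824 to 0.903), and the related Gpr108 had 2478 and 2639, a ratio of 1.03 (0.979 to 1.09). Gpr180 was at 0.869 (0.818 to 0.924) with 2230 and 1996 counts. Gpr89, an anion channel that regulates the pH of the Golgi, was at 0.889 (0.833 to 0.949) with 1922 and 1760, and 27.9% of its exonic length overlaps other genes on the opposite strand. The lysosomal proteins gave Gpr137 at 1.32 (1.17 to 1.48), Gpr155, a cholesterol sensor, at 1.248 (1.09 to 1.43) and Gpr137b at 1.09 (0.945 to 1.251). Gpr137c, with 29 and 17 counts, was at 0.569 (0.293 to 1.07).

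The other receptors with a Gpr name included all 5 genes past the rule, out of 21 compared, where 8.93% of all rows were past it and 17.2% of the rows with 20 to under 200 counts, the depth of 4 of the 5. Whether the kinds of Gpr and Adgr protein differ in this count was not tested. Among those not past it, Gpr19 had 203 and 299 counts, a ratio of 1.43 (1.19 to 1.72). Gpr157 had 212 and 279, a ratio of 1.28 (1.07 to 1.54). Gpr162 had 234 and 159 counts, a ratio of 0.660 (0.536 to 0.811), and Gpr173, one of a group of receptors conserved in brain, 155 and 129. Gpr39, a zinc receptor gene, had 26 and 23 counts, and Gpr182, an atypical chemokine receptor gene, 31 and 20. Exons of Lypd1 on the opposite strand cover 39.9% of the exonic length of Gpr39, so its counts are uncertain. Gpr62, Gpr160, Gpr63, Gpr17 and Gpr135 had between 23 and 74 counts in all.

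Low-count genes leaned to ratios below 1. Of the 17 genes with 20 to under 200 counts 14 had a ratio below 1, and their median log2 ratio (0.5 count added to each library) was -0.45, against 48.1% of rows below 1 and a median of 0.05 over all rows of that depth. Of the 12 genes with 200 to under 2000 counts 6 were below 1, with a median of 0.00, and of the 12 with 2000 or more 6 were below 1, with a median of 0.02. Over all 41 the median was -0.16, and over all compared rows it was 0.00. Setting the 0 of Gpr45 to 3 counts could not change the median of the 41, because Gpr45 stayed below it.

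**Figure D4:**
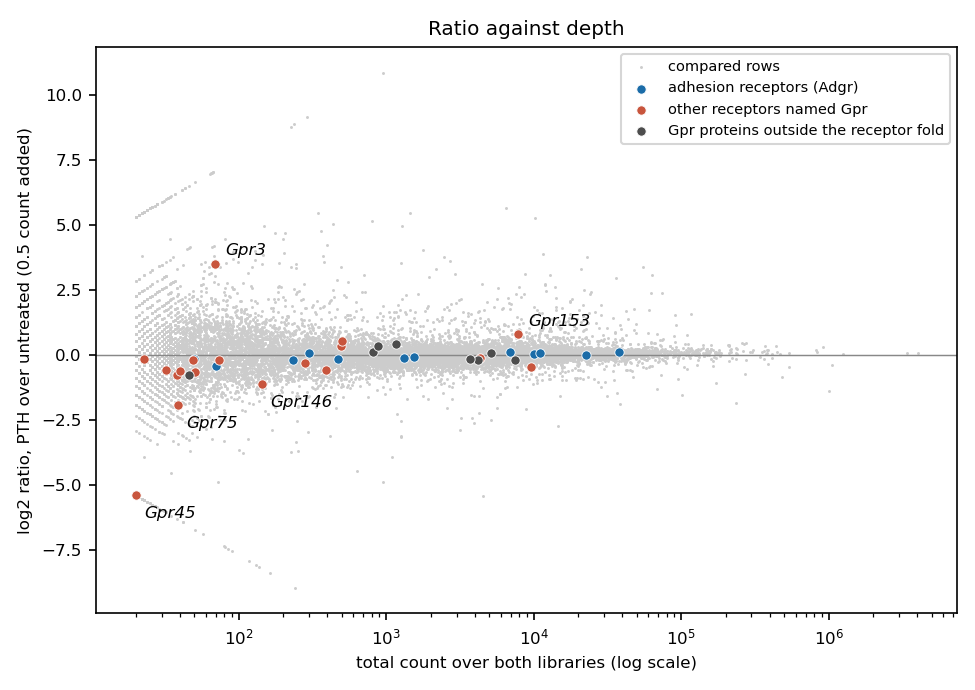
Log2 ratio, PTH over untreated (vertical axis, 0.5 count added), against the total count over both libraries (horizontal axis, log scale), with the compared rows in grey and 38 of the 41 genes in colour. The spread of all rows widens towards low totals, where Gpr3, Gpr146, Gpr75 and Gpr45 lie, and Gpr153 stands near the upper edge of the rows of its depth.

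The 21 genes with fewer than 20 counts were not compared. Of them 9 were listed at 0 untreated and 7 at 0 with PTH. Just under the limit stood Gpr183, a receptor for oxysterols, with 19 counts untreated and 0 with PTH, and just inside it Gpr45, with 20 and 0. Gpr35 had 10 and 0 counts, Gpr171 0 and 10, and Gpr21 0 and 9. The table lists more zeros than sampling of reads would give: of the 2778 rows with 10 to 29 counts in all, 21.5% were at 0 in 1 library. Of the 8 genes described here in that range 4 were, so these zeros are not read as absence.

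Related genes were taken from fixed lists. Of 24 orphan, atypical and adhesion receptor genes whose names do not follow the Gpr or Adgr pattern, 15 were compared, and 5 were past the rule, all with more reads, where 5.39% of all rows had more. The list held a gene already known to have a high ratio, so its count is a description. That gene was Gprc5a, an orphan receptor gene of another class, at 8.30 (7.84 to 8.79). Ackr3, an atypical receptor that removes the chemokine Cxcl12, had 1097 counts untreated and 6911 with PTH, a ratio of 6.12 (5.74 to 6.53), and Gprc5c, related to Gprc5a, had 1320 and 3566, a ratio of 2.62 (2.46 to 2.80). Cmklr1, the chemerin receptor gene, had 35 and 91 counts, a ratio of 2.52 (1.69 to 3.84). Ccrl2, which binds chemerin without signalling, had 7 and 26, a ratio of 3.61 (1.52 to 9.84), but total-count scaling, upper-quartile factors and either widened interval each ended its call. Gprc5b, the most abundant of the list per length in the untreated library, was at 0.926 (0.880 to 0.975). The 3 adhesion genes outside the pattern, Celsr1, Celsr2 and Celsr3, had 0 and 3, 12 and 16, and 0 and 11 counts.

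Ligands of the Gpr receptors gave 5 compared genes, and 1 was past the rule, where 8.93% of all compared rows were. With so few genes that count is no result about the list. Rarres2, which encodes chemerin, had 267 counts untreated and 121 with PTH and was 2.27-fold lower (1.83 to 2.84). Exons of the opposite strand cover 33.6% of Rarres2, so its counts are uncertain. Gpr1, the second signalling receptor gene for chemerin, was listed at 0 in both libraries, and thus Cmklr1 was the signalling chemerin receptor gene with counts. Ch25h, whose enzyme makes the precursor of the Gpr183 ligand, had 873 and 620 counts, a ratio of 0.690 (0.621 to 0.765). Psap, the precursor of saposins and a proposed ligand for Gpr37, was at 1.08 (1.06 to 1.09) and had the highest level of the list, while Gpr37 and Gpr37l1 were at 0. Cxcl12 was at 0.904 (0.887 to 0.921).

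Of 18 compared ligand genes for the adhesion receptors, 1 was past the rule, where 8.93% of all compared rows were. It was Flrt1, with 3 and 17 counts at 5.50 (1.59 to 29.3). Of all rows with 20 to under 200 counts, the depth of Flrt1, 17.2% were past the rule. The count is therefore no result about the list. With the widened intervals Flrt1 was not past the rule. The abundant ligand genes had ratios near 1. Col3a1 (type III collagen), the highest of the list per length, was at 1.03 (1.02 to 1.04), Col4a1 and Col4a2 (type IV collagen) were at 1.06 (1.05 to 1.08) and 1.08 (1.07 to 1.10), and the teneurin gene Tenm4 was at 0.997 (0.972 to 1.02). Flrt2 was at 1.34 (1.23 to 1.46), Thy1 at 1.43 (1.35 to 1.51) and Reck at 1.03 (0.969 to 1.10), whereas Wnt7a was at 0 and Wnt7b had 6 and 20 counts. In the hedgehog and cilium list that surrounds Gpr161, none of 9 compared genes was past the rule, where 8.93% of all compared rows were. Smo, the pathway's signal transducer, was at 1.01 (0.990 to 1.03), Ptch1, its receptor, at 1.34 (1.29 to 1.40), and Tulp3, which carries receptors into the cilium, at 1.20 (1.15 to 1.24).

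**Figure D5:**
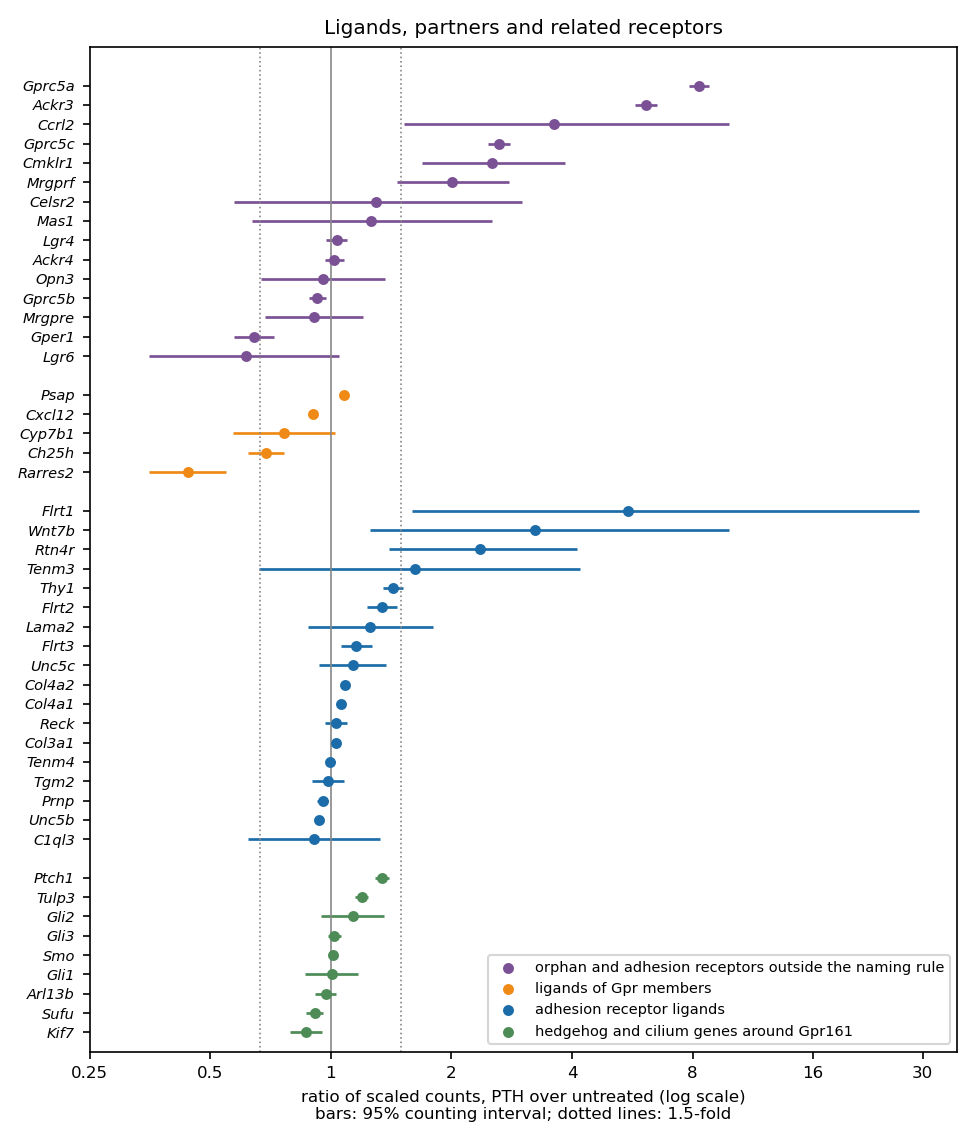
Ratio of scaled counts, PTH over untreated (horizontal axis, log scale), for the compared genes of the 4 lists, with 95% counting intervals as bars and dotted lines at 1.5-fold. Gprc5a at 8.30 and Ackr3 at 6.12 lead the related receptors, Rarres2 is the ligand gene with an interval wholly below the rule, and the hedgehog and cilium genes lie inside it.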

How the data were processed

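RNA of MC3T3-E1 cells was sequenced in 1 untreated and 1 PTH library. The authors deposited a table of whole-number counts per gene, not normalised. The aligner was HISAT2 and the build mm10, per the submitters' processing notes. The sources used here do not give the HISAT2 version, the counting tool, its annotation or its use of strand. If the counts were estimated from coverage, the intervals are too narrow.

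Scaling used edgeR's TMM (edgeR 4.0.16, R 4.3.3) over the 16408 rows with 20 or more counts. Its quasi-likelihood test could not be fitted with 1 library per group. Ratios have 95% Clopper-Pearson intervals (Python 3.11.15, scipy 1.17.1), which cover counting error only; PCR copies are not independent molecules. Interval and rule were run on simulated counts that held counting error only. The simulation had no spread between cultures and no added zeros, so it cannot show how they perform on these data. CPM uses the TMM effective library sizes. Exonic length, positions and shared exons came from GENCODE M21 (GRCm38, the same assembly as mm10), to which 55227 of 55487 rows matched by gene identifier, and promoters from RefSeq (GRCm38.p6). Alternatives were 3 other scalings (total counts, DESeq2 1.42.0 size factors, upper-quartile factors), count limits of 10, 50 and 1, fold limits of 2 and a milder one, widened intervals (a normal approximation on the log scale), a pseudocount of 5, and leaving out shared exons or listed zeros.

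The genes and lists were chosen with earlier results of these data known. Named genes are those past the rule, the 12 highest levels and the compared genes of the cyclic AMP-raising list. Per list of related genes, up to 4 past the rule and the most abundant were named. Further genes were added as examples once their values had been seen. Of the 41 compared genes 3 enter the counts and medians but are not reported by name here.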

Additional observations from a re-analysis of the deposited data

How the results depend on the processing

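The number of genes past the rule was 5 of 41 and depended on the count limit. It was 8 with 10 or more counts, 3 with 50 or more and 9 with 1 or more. It was 2 with a 2-fold limit, 2 with intervals widened for a coefficient of variation of 0.2 and 3 with 0.1. All were receptors with a Gpr name, and the count over those receptors alone was the same number in each of these settings. With the 3 other scalings, and without genes that share 20% or more of their exonic length, these counts stayed at 5. Without genes listed at 0 they were 4. Over all compared rows 4.52% were past the rule with the intervals widened for 0.2 and 6.61% with 0.1. For the other changed settings the share of all rows was not worked out. The counts in those settings, here and for the lists below, therefore have no background beside them. The median log2 ratio was -0.20 with total counts, -0.19 with upper-quartile factors, -0.066 with 50 or more counts and -0.14 with a pseudocount of 5.

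Among ligand genes of the adhesion receptors the count of 1 became 2 with 10 or more and with 1 or more counts, 4 at the milder fold limit, and 0 with 50 or more counts, at 2-fold and with both widened intervals. Among ligand genes of the Gpr receptors the count of 1 became 2 at the milder fold limit, and 0 at 2-fold, with the interval widened for 0.2 and without shared exons. In the hedgehog list 0 became 1 at the milder fold limit. Among receptors outside the name pattern 5 became 3 at 2-fold and with the interval widened for 0.2, 4 with total counts, with upper-quartile factors, with 50 or more counts and with the interval widened for 0.1, 6 with 10 or more and with 1 or more counts, and 7 at the milder fold limit. Ccrl2 was the call lost with total counts and upper-quartile factors. The share of genes with TGACG was 20.9% when only the 100 bases before the start were searched, a shorter window that held it in 12.0% of all genes. The cause of the other shifts was not tested. The 27 genes named by the stated rule kept their call under the 3 other scalings, and Ccrl2, named besides, did not.

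Genes under 20 counts could not be compared at this depth. With 1 library per condition the variation between cultures is unknown. No paired analysis was possible because each group has 1 library and the labels give no replicate numbers.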
